A study of Mus musculus with 10 samples.

Results

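The AP-1 transcription factors were followed across the RNA-seq libraries of the mouse melanoma line WT31 and its liver-passaged subline WT31_P5IV. The 10 genes were chosen by symbol, as the Fos genes Fos, Fosb, Fosl1 and Fosl2, the Jun genes Jun, Junb and Jund, and the related factors Atf3, Maff and Batf3. All 10 were found among the 55385 gene identifiers of the count tables, and 9 had enough counts to be tested together with 13620 genes in all. WT31 is a parental line from Tyr::NrasQ61K/°; INK4a-/- mice, in which the tyrosinase promoter drives mutant Nras in pigment cells and the INK4a locus is deleted. WT31_P5IV was derived from it by 5 passages over the liver, each after intravenous injection, and the subline is a single passaging series. Both groups thus descend from cells with these alleles, and changes of the genome over the passages were not examined here. Each group held 5 biological replicates of untreated cells, seeded the day before, detached without enzyme and lysed while sub-confluent. The replicates of a group share their line, and the p-values measure the spread between these cultures only.

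AP-1 is a dimer of basic leucine zipper (bZIP) proteins. Jun proteins pair with each other or with Fos proteins and bind DNA, whereas Fos proteins need a Jun partner, and the make-up of the pool of subunits sets which dimers can form. Many of these genes are immediate early genes, transcribed within minutes of growth factor, stress or adhesion signals that run through the MAP kinases. In NRAS-mutant melanoma the RAS, RAF, MEK and ERK cascade that feeds AP-1 is active without a ligand.

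The libraries held 24255389 to 25750639 estimated counts, at which 3 counts, taken as the limit of detection, correspond to 0.117 to 0.124 CPM (counts relative to the library total, scaled by TMM below). The 7 melanocyte lineage markers, among them Pmel, Dct and Mitf, summed to 17046 to 18443 CPM in WT31 and to 22228 to 25730 CPM in WT31_P5IV. They went both ways: Pmel (log2 fold change 1.22) and Dct (0.80) were higher in WT31_P5IV and Tyrp1 (-0.96) was lower, whereas Tyr, Sox10, Mlana and Mitf differed by -0.14 to 0.25 and were called in some analyses and not in others. Markers of other cells were low: the 5 leukocyte and macrophage genes summed to 4.84 to 6.68 CPM in WT31 and 4.22 to 6.24 CPM in WT31_P5IV with Ptprc and Adgre1 never above 3 counts. Within this sum Cd68 rose from 1.37 to 3.73 CPM (log2 fold change 1.45) and Lyz2 fell from 4.33 to 1.08 CPM (log2 fold change -2.01). The 5 hepatocyte genes reached 0.554 CPM and 1.18 CPM at most, with Krt18 at 0, and the 5 endothelial genes 0.341 CPM and 0.379 CPM, with Cdh5 and Lyve1 at 0. The 6 fibroblast and stellate genes summed to 2.12 to 2.98 CPM in WT31 and to 3.87 to 4.84 CPM in WT31_P5IV, without overlap. The part of these cells in the results was not tested. In bulk RNA, fewer cells that express a gene and less of its RNA per cell cannot be told apart. Among the WT31 libraries, replicates 2 and 3 resembled each other and so did replicates 4 and 5, with a chi-square per degree of freedom of 3.32 and 2.45 within these pairs and of 12.2 to 25.2 across them. Results that turn on these pairs are given with and without them.

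Most of the AP-1 genes were lower in WT31_P5IV. Fos, Fosl2, Jun, Junb, Atf3 and Maff fell, Jund and Batf3 rose, Fosb did not pass the test and Fosl1 was at the limit of detection. In the test over all genes (edgeR, adjusted p under 0.05), 8 of 9 tested AP-1 genes were called, against 68.5% of all tested genes, and the difference between these shares was not tested. By direction, 6 of 9 fell against 33.9% of all genes and 2 of 9 rose against 34.6%. The median log2 fold change of the 9 genes was -0.25 and that of all tested genes 0.01. Under a second call rule, which adds a change of 2-fold or more, none of the 9 passed, against 9.19% of all tested genes (5.49% higher and 3.69% lower). For 4 of the 9, Fos, Fosl2, Jun and Atf3, the CPM values of WT31_P5IV lay below all values of WT31, a pattern found for 27.5% of all tested genes. For no AP-1 gene did all values of WT31_P5IV lie above those of WT31, as they did for 26.6% of tested genes (54.1% in either direction). Of all called genes, 50.5% were higher in WT31_P5IV on the count scale, but 32.9% on the log2(TPM + 0.1) scale, where TPM is the kallisto level that accounts for transcript length. That scale moved the median of all genes by -0.17 relative to the count scale, and the directions of the 9 genes were the same on both.

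**Figure D1:**
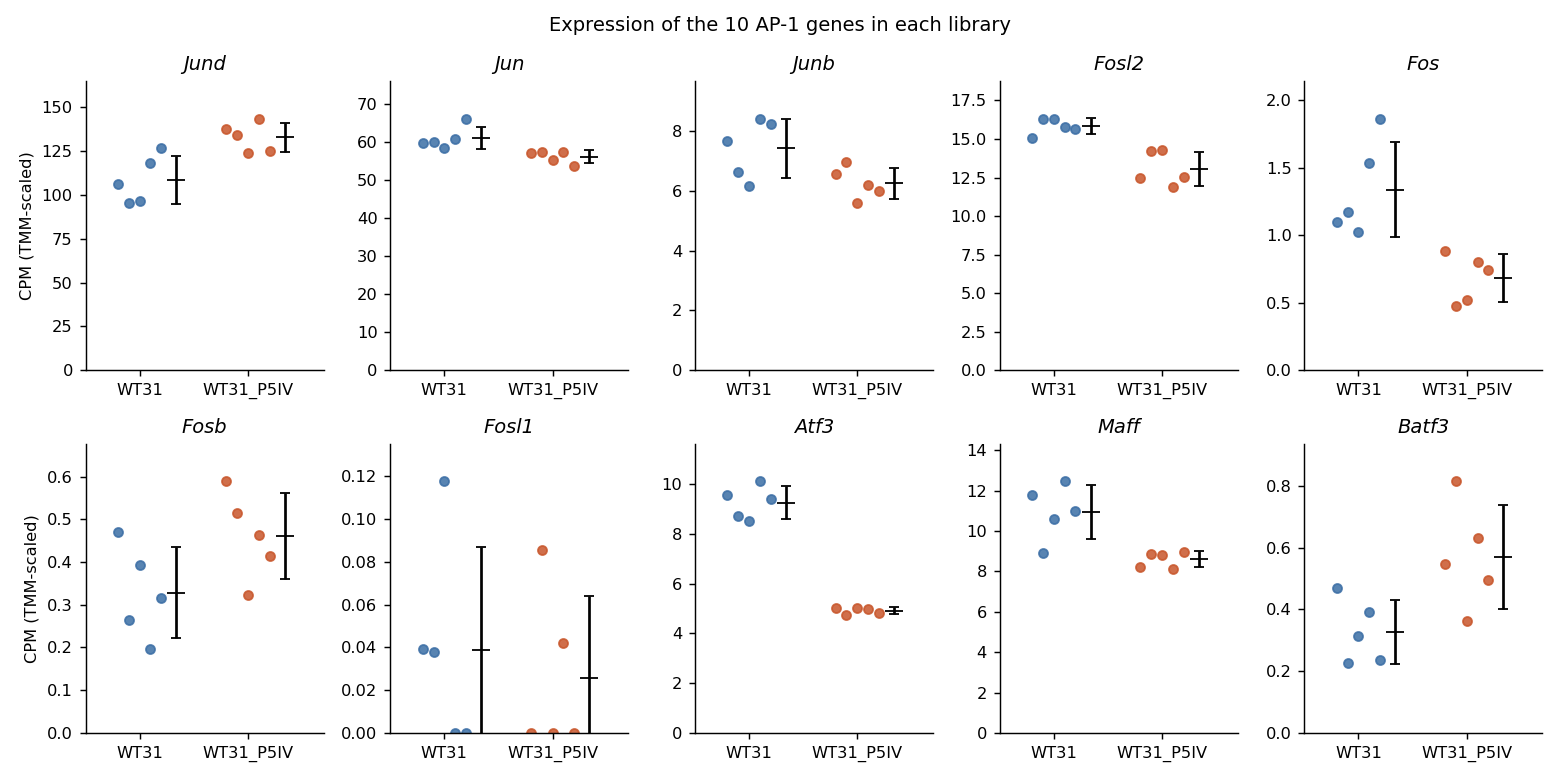
Expression of the 10 AP-1 genes in CPM, scaled by TMM, on linear axes that start at 0. Each point is a library in replicate order, the bar beside it is the mean and the whiskers are the SD of the 5 libraries of a group, cut off at 0 for Fosl1; Fos, Fosl2, Jun and Atf3 are lower in every WT31_P5IV library than in any WT31 library.

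On the mouse genome (GRCm38, GENCODE M21), Jun (chr4:95049034-95052222, minus strand) and Jund (chr8:70698949-70700616, plus strand) are genes of 1 exon, and Junb lies on the same chromosome as Jund (chr8:84974484-84978718, minus strand). Fos (chr12:85473890-85477273, plus strand), Fosb (chr7:19302696-19310051, minus strand), Fosl1 (chr19:5447547-5455946, plus strand) and Fosl2 (chr5:32135801-32157842, plus strand) are spread over 4 chromosomes. Atf3 (chr1:191170296-191218039, minus strand) and Batf3 (chr1:191097847-191108945, plus strand) lie close together and changed in opposite directions, and Maff lies at chr15:79346621-79359076 on the plus strand. All 10 are annotated as protein-coding.

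The regions just before the RefSeq start sites of Fos, Jun, Atf3 and Maff are shown, since a searched word was found in them. Fosl2 and Junb, which also fell, had no match in the regions searched, nor had Fosb, Jund and Batf3. RefSeq promoter entries (GRCm38.p6) were matched for 9 of the 10 genes, Fosl1 being the other, and the 250 bases upstream of each start were searched on both strands for TGACGTCA (the cAMP response element), its first 6 letters TGACGT, TGACATCA (the element known from the Jun promoter), TGANTCA (the AP-1 element), TATAAA and the core of the serum response element. The 6-letter word was added after the sequences were seen, and it is contained in TGACGTCA. RefSeq start sites can differ from the GENCODE gene positions given above. The Jund region searched, chr8:70697489-70697738, lies upstream of that gene position and apart from it. The bases just before the GENCODE start of Jund were therefore not searched. The Atf3 start site used, chr1:191183333, lies within the gene. The sequences run 5′ to 3′ on the strand of the gene and end at the base before the start site, with matched letters in capitals. They are Fos, chr12:85473640-85473889, plus strand; Jun, chr4:95052223-95052472, minus strand; Atf3, chr1:191183334-191183583, minus strand; and the second of 3 Maff start sites, chr15:79347270-79347519, plus strand.
Fos: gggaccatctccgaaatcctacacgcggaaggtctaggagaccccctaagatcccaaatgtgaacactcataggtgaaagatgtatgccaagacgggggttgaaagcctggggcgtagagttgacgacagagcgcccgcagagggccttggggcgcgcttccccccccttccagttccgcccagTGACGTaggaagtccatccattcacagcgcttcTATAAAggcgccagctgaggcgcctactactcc
Jun: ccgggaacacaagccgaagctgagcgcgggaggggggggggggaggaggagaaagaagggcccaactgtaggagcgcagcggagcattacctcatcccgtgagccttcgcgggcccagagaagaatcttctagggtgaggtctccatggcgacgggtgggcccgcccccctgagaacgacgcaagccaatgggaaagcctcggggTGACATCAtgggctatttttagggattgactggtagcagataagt
Atf3: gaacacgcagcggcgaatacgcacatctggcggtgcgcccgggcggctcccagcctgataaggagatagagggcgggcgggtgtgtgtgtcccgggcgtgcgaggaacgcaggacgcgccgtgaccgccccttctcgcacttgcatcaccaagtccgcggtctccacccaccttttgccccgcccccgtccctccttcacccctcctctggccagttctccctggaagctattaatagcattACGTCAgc
Maff: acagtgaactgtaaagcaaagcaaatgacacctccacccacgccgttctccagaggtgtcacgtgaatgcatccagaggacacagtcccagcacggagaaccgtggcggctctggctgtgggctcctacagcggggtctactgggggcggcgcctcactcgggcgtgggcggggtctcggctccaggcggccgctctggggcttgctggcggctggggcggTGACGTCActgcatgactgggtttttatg

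The Fos region held TGACGT at positions -66 to -61 from the start and TATAAA at -33 to -28. The Jun region held TGACATCA at -45 to -38, and a further Maff start site, chr15:79348152-79348401, held the same word at the same distance. The Atf3 region held TGACGT on the other strand at -8 to -3, printed as its reverse complement ACGTCA. The Maff region shown held the full TGACGTCA at -29 to -22. In all, TGACGT was found before 3 of the 9 genes with a promoter entry, Fos, Atf3 and Maff, and in 6.47% of 32851 mouse promoter windows of the same length. The counts of AP-1 genes are by gene, with 3 windows for Maff, whereas these shares are by window, so they are not directly comparable. TGACATCA was found before 2 of the 9 and in 2.93% of windows, TGACGTCA before 1 and in 1.55%, and TATAAA before 1 and in 12.4%. No match to TGANTCA (6.75% of windows) or to the serum response element core (1.47%) lay in the 250 bases searched for any of the 9 genes. Bases further upstream were not searched, so this does not show that a gene, Fos among them, lacks these elements. These matches describe letters and say nothing of binding.

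Jund, the Jun protein that is expressed steadily and dampens growth in many cells, was the most abundant of the 10 genes. Its CPM values were 106, 95.6, 96.6, 118 and 127 in WT31 replicates 1 to 5 and 138, 134, 124, 143 and 125 in those of WT31_P5IV. Replicates 4 and 5 of WT31 were higher than the other WT31 libraries, and replicate 5 exceeded the lowest WT31_P5IV libraries, so that the groups overlapped. The mean rose from 109 ± 13.7 to 133 ± 8.23 CPM (SD, n = 5 each). This is a log2 fold change of 0.29 (SE 0.07, adjusted p = 0.00278). The value was 0.40 without WT31 replicates 4 and 5 (adjusted p = 1.75e-05) and 0.17 without replicates 2 and 3 (adjusted p = 0.0171). On the log2(TPM + 0.1) scale the difference was 0.12 and no longer passed the test (limma, adjusted p = 0.109).

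Jun, the founding subunit of AP-1 and a strong transactivator that is itself an AP-1 target, changed least on the count scale among the genes that were called. It had 59.8, 59.9, 58.4, 60.8 and 66.1 CPM in WT31 and 57.1, 57.4, 55.2, 57.4 and 53.7 CPM in WT31_P5IV. All WT31_P5IV libraries lay below all WT31 libraries, by a narrow margin. The mean fell from 61.0 ± 2.96 to 56.2 ± 1.67 CPM (SD, n = 5 each). On the log2 scale the change was -0.12 (SE 0.04, adjusted p = 0.0161). With upper-quartile scaling it was -0.091 and was not called (adjusted p = 0.0688), and on the log2(TPM + 0.1) scale it was -0.29.

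Junb, an immediate early Jun protein that opposes Jun at some promoters, had 7.68, 6.62, 6.16, 8.41 and 8.24 CPM in WT31 and 6.56, 6.95, 5.59, 6.19 and 5.99 CPM in WT31_P5IV. WT31 replicates 4 and 5 were again the highest, replicates 2 and 3 lay within the range of WT31_P5IV, and the groups overlapped. The mean fell from 7.42 ± 0.993 to 6.26 ± 0.522 CPM (SD, n = 5 each). This corresponds to a log2 fold change of -0.25 (SE 0.10, adjusted p = 0.0341). The call was lost when WT31 replicate 1, 4 or 5 or WT31_P5IV replicate 3, 4 or 5 was left out, with log2 fold changes from -0.25 to -0.21 and adjusted p from 0.0533 to 0.0796. Without WT31 replicates 4 and 5 the value was -0.15 (adjusted p = 0.203), and without replicates 2 and 3 it was -0.39 (adjusted p = 0.000775). On the log2(TPM + 0.1) scale it was -0.40 (limma, adjusted p = 0.00189).

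Fos, the prototype immediate early gene, whose protein must pair with a Jun protein to bind DNA, fell, on the count scale, by about as much as Atf3, within its standard error. WT31 replicates 1 to 5 had 1.10, 1.17, 1.02, 1.53 and 1.86 CPM, from 26 to 47 counts. WT31_P5IV replicates had 0.883, 0.472, 0.523, 0.800 and 0.744 CPM, from 11 to 21 counts. Every WT31_P5IV library was below every WT31 library, and WT31 replicates 4 and 5 were the highest. The mean fell from 1.34 ± 0.353 to 0.684 ± 0.179 CPM (SD, n = 5 each). The log2 fold change was -0.97 (SE 0.23, adjusted p = 0.00168), with a 95% interval from -1.41 to -0.52. It was -0.70 (adjusted p = 0.0187) without WT31 replicates 4 and 5 and -1.14 (adjusted p = 0.000802) without replicates 2 and 3. With a pseudocount of 1 on the TPM scale, which compresses low genes, it was -0.44.

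Fosl2, which encodes FRA-2, a Fos protein without the strong transactivation domain of FOS, was the most abundant Fos gene. It had 15.1, 16.3, 16.3, 15.8 and 15.6 CPM in WT31 and 12.5, 14.2, 14.3, 11.9 and 12.5 CPM in WT31_P5IV. The groups did not overlap, and the WT31 libraries lay close together. The mean fell from 15.8 ± 0.513 to 13.1 ± 1.09 CPM (SD, n = 5 each). The log2 fold change was -0.28 (SE 0.06, adjusted p = 0.000897) and ranged from -0.32 to -0.25 when single libraries were left out. On the log2(TPM + 0.1) scale it was -0.42.

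Fosb, an immediate early Fos gene, was near the limit of detection, with 0.470, 0.265, 0.392, 0.197 and 0.317 CPM in WT31 and 0.589, 0.515, 0.322, 0.463 and 0.413 CPM in WT31_P5IV. The groups overlapped widely, on 5 to 14 counts a library. The log2 fold change was 0.49 (SE 0.28) and was not called (adjusted p = 0.135), with a 95% interval from -0.06 to 1.03. Fosl1, which encodes FRA-1, a Fos protein known as an ERK-dependent factor in invasive tumors, had 0 to 3 counts in WT31 and 0 to 2 counts in WT31_P5IV. It was not detectable at this depth in either line beyond the limit of 3 counts, so no fold change is given (exact two-sided permutation test of CPM, p = 0.762).

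Atf3, a stress-induced factor that represses as a homodimer and can activate with Jun partners, showed the fall of smallest relative error. Its CPM values were 9.56, 8.70, 8.51, 10.1 and 9.39 in WT31 and 5.00, 4.72, 5.03, 4.97 and 4.83 in WT31_P5IV. The highest WT31_P5IV library was well below the lowest WT31 library, and the WT31_P5IV libraries were nearly equal. The mean fell from 9.25 ± 0.649 to 4.91 ± 0.131 CPM (SD, n = 5 each), and in the fit it fell by 46.9%. The log2 fold change was -0.91 (SE 0.07, adjusted p = 2.48e-08). It ranged from -0.95 to -0.89 when single libraries were left out and from -1.06 to -0.89 over the alternative analyses, and every one of them called it.

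Maff, a small Maf protein that lacks a transactivation domain and pairs with NRF2, BACH and other bZIP proteins, had 11.8, 8.89, 10.6, 12.5 and 11.0 CPM in WT31 and 8.20, 8.88, 8.81, 8.13 and 8.96 CPM in WT31_P5IV. WT31 replicate 2 was the lowest of its group and lay just within the range of WT31_P5IV, so that the groups overlapped at this library only. The mean fell from 10.9 ± 1.36 to 8.60 ± 0.398 CPM (SD, n = 5 each). Its log2 fold change was -0.35 (SE 0.08, adjusted p = 0.00178). It was -0.30 without WT31 replicates 4 and 5 and -0.47 without replicates 2 and 3, and was called each time (adjusted p = 0.00786 and 2.17e-05).

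Batf3, which pairs with Jun proteins and is best known from dendritic cells, rose at a very low level. It had 0.470, 0.227, 0.314, 0.393 and 0.238 CPM in WT31 and 0.547, 0.815, 0.362, 0.632 and 0.496 CPM in WT31_P5IV, on 6 to 19 counts a library. The 2 highest WT31 libraries exceeded the lowest WT31_P5IV library. Batf3 had a log2 fold change of 0.79 (SE 0.29, adjusted p = 0.0234), with a 95% interval from 0.23 to 1.35. The call was lost without WT31 replicate 2 or 5 and without WT31_P5IV replicate 2 or 4, where the log2 fold change was 0.63 to 0.75 and the adjusted p 0.0508 to 0.0744. It was also lost in DESeq2 (0.79, adjusted p = 0.0543) and on the log2(TPM + 0.1) scale (0.43, adjusted p = 0.0893).

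**Figure D2:**
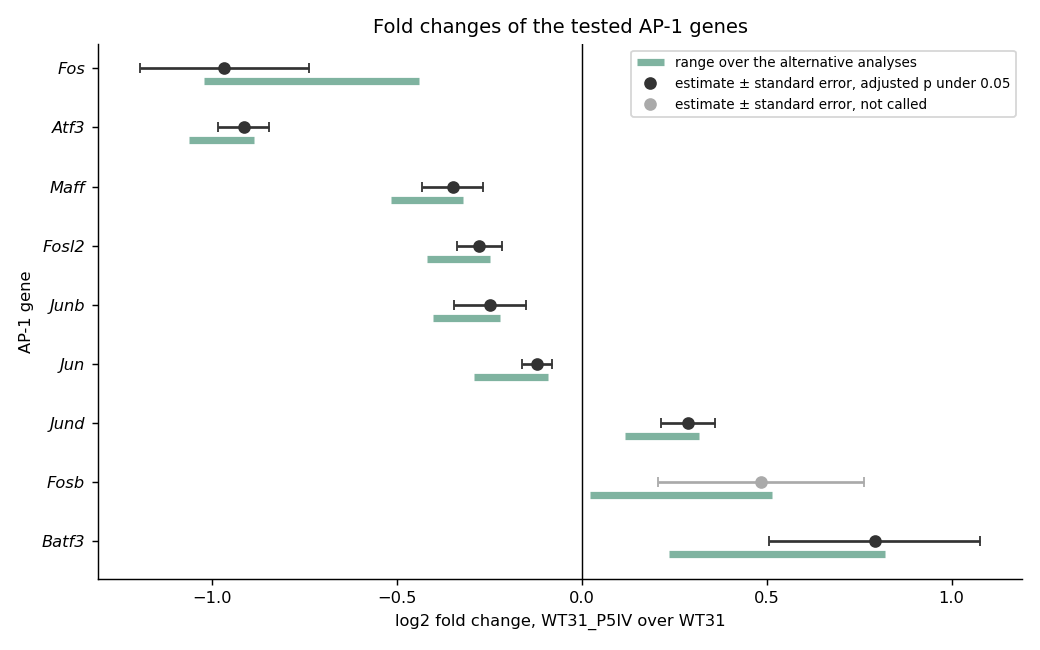
Log2 fold change of WT31_P5IV over WT31 for the 9 tested AP-1 genes, with whiskers of 1 standard error, and below each the range over the alternative analyses of the same 10 libraries. Fos (-0.97) and Atf3 (-0.91) stand furthest below 0, and no range crosses 0.

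Levels of different genes were compared in TPM. In WT31, Jund was highest at 110 ± 10.5 TPM, followed by Jun at 30.4 ± 0.937 TPM (SD, n = 5 each). Maff (9.33 ± 1.06 TPM), Atf3 (7.75 ± 0.380 TPM) and Junb (6.85 ± 0.738 TPM) followed, and each overlapped the next in this order over the libraries. Fosl2 stood apart below them at 3.74 ± 0.202 TPM, Fos (1.09 ± 0.226 TPM) and Batf3 (0.877 ± 0.256 TPM) overlapped, and Fosb (0.166 ± 0.0793 TPM) overlapped with Fosl1 (0.0883 ± 0.157 TPM). In WT31_P5IV, Jund (119 ± 6.15 TPM) and Jun (24.8 ± 0.390 TPM) again led. Maff (6.47 ± 0.354 TPM), Junb (5.15 ± 0.386 TPM), Atf3 (3.66 ± 0.150 TPM), Fosl2 (2.78 ± 0.198 TPM), Batf3 (1.21 ± 0.299 TPM) and Fos (0.543 ± 0.201 TPM) followed, all apart from their neighbours in the order, whereas Fosb and Fosl1 overlapped at the bottom. By mean level the order of Atf3 and Junb and that of Fos and Batf3 were the opposite in the 2 lines, but both pairs overlapped over the WT31 libraries. Jund was higher than 89.9% of tested genes in WT31 and 92.0% in WT31_P5IV, and Fos higher than 13.2% and 7.13%.

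The summed level of the 10 genes was 170 ± 12.2 TPM in WT31 and 164 ± 6.46 TPM in WT31_P5IV, with overlapping libraries, while the make-up of the pool differed. Jund made up 64.5% ± 1.54 of the summed TPM in WT31 and 72.6% ± 0.907 in WT31_P5IV (SD, n = 5 each), without overlap of the libraries. The TPM of Jund itself did overlap, with 100 to 124 in WT31 and 112 to 128 in WT31_P5IV, so its share also reflects the lower levels of other members. The Jun genes together made up 86.4% ± 0.863 and 90.9% ± 0.504. The Fos genes made up 3.00% ± 0.327 and 2.20% ± 0.0733, and Atf3, Maff and Batf3 together 10.6% ± 0.810 and 6.93% ± 0.435. None of these shares overlapped between the groups, but they are parts of the same sum and are given as a description. In TPM, the ratio of Jund to Jun was 3.62 ± 0.315 in WT31 and 4.80 ± 0.187 in WT31_P5IV, and that of Jund to Junb 16.1 ± 0.895 and 23.2 ± 1.67. In the plot of shares by library, Jund holds the largest part of every culture.

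**Figure D3:**
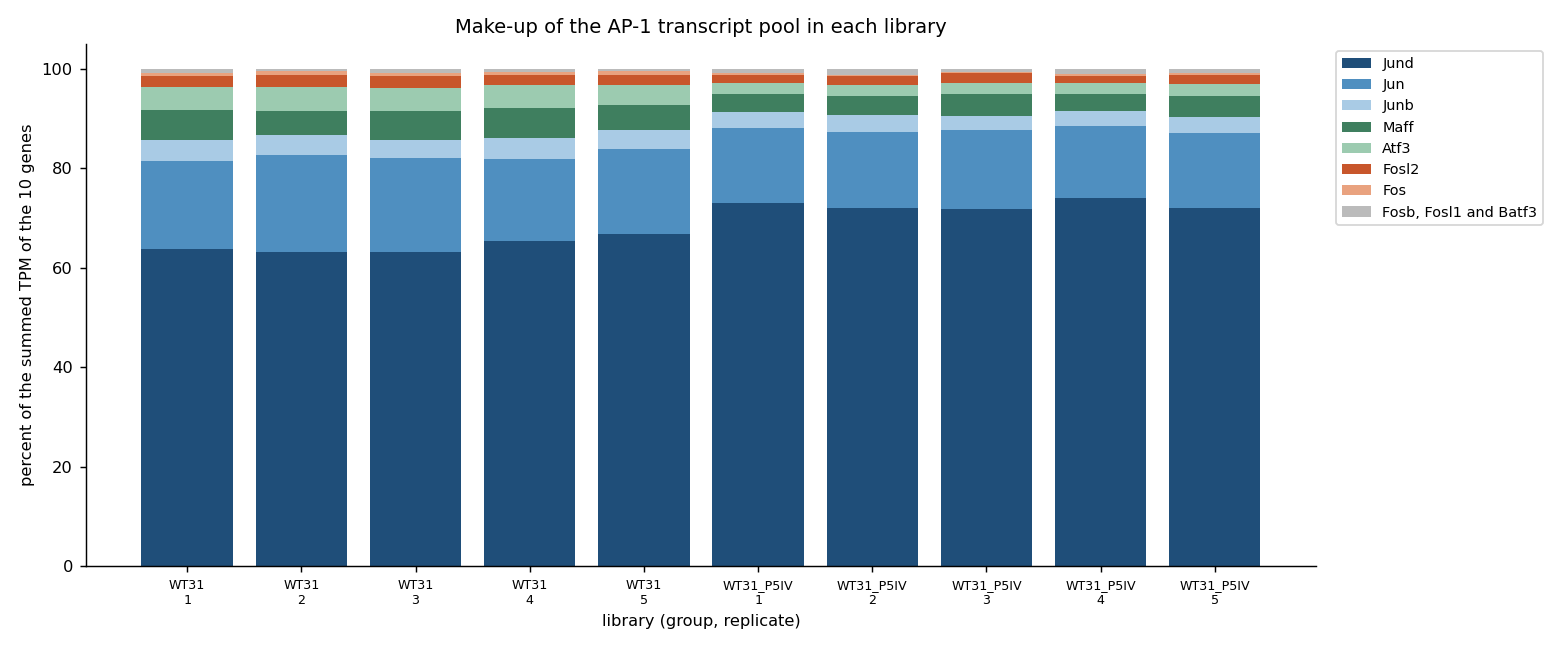
Share of each AP-1 gene in the summed TPM of the 10 genes, in percent, with a bar for each library. The Jund segment covers 63.2% to 66.7% in the WT31 libraries and 71.9% to 74% in the WT31_P5IV libraries.

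Reads that could come from neighbouring genes bear on some of these levels, and the strandedness of the libraries is not given in the sources used here. Of the 31-base words in the transcripts of Jund, 50.1% also occur in the antisense gene Gm11175 on the opposite strand, which had 0 to 2 counts a library. For Fosl1 this share was 54.5%, with Ccdc85b on the opposite strand, which had 18.2 ± 1.80 CPM in WT31 and 16.8 ± 0.873 CPM in WT31_P5IV, so the few counts of Fosl1 are uncertain. Jun shared 6.39% of words with the antisense gene Junos (3 to 8 counts), and Junb 6.51% with Prdx2, which had 242 ± 15.5 CPM in WT31 and 267 ± 9.27 CPM in WT31_P5IV. Fosb and Fosl2 shared under 0.1% of words, and Fos, Atf3, Maff and Batf3 none. The transcript length implied by the ratio of counts to TPM differed by 0.15 on the log2 scale for Batf3, 0.10 for Fosb and -0.08 for Fos, and by at most 0.02 in size for the other tested AP-1 genes, against a median absolute difference of 0.02 over all tested genes. With an offset for this length, the log2 fold change of Batf3 was 0.62 and was not called (adjusted p = 0.0757), and that of Fos was -0.90 (adjusted p = 0.00751).

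The genes whose profile over the 10 libraries was most like that of Fos, by the root mean square difference of centred log2(CPM + 0.5), were Gad1os (0.12), Gm16316 (0.14) and Mpv17l (0.14). Gad1os went from 2.92 ± 0.431 to 1.91 ± 0.276 CPM and Mpv17l from 1.83 ± 0.166 to 1.18 ± 0.220 CPM. Those most like Batf3 were Tmem53 (0.08), Pwwp2b (0.10) and Echdc3 (0.11). Echdc3 went from 7.24 ± 0.635 to 9.34 ± 0.939 CPM. This likeness is a description over libraries of 2 groups and carries no test.

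Further bZIP proteins that can pair with AP-1 subunits or compete with them were next considered. Of 20 listed genes 16 were tested, of which 9 fell and 3 rose, beside 33.9% of all tested genes that fell and 34.6% that rose, with a median log2 fold change of -0.28. Bach1, a repressor that pairs with small Maf proteins, fell by 50.1% in the fit, from 61.5 ± 4.54 to 30.6 ± 1.60 CPM (adjusted p = 7.44e-10). Maf, a large Maf factor, fell from 0.640 ± 0.142 to 0.150 ± 0.0460 CPM, the latter close to the limit of detection (log2 fold change -2.09, SE 0.29, adjusted p = 1.66e-05), and its change was -0.17 on the log2(TPM + 1) scale. Batf, a partner of Jun proteins that resembles Batf3 and lies near Fos on chromosome 12 (chr12:85686669-85709087), rose from 1.72 ± 0.334 to 3.83 ± 0.508 CPM (log2 fold change 1.16, SE 0.15, adjusted p = 5.51e-06). Creb5, a CREB-family factor that can pair with Jun, rose from 7.01 ± 0.526 to 10.1 ± 0.646 CPM (log2 fold change 0.53, SE 0.07, adjusted p = 1.01e-05).

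Of 19 kinases and factors upstream of AP-1, 17 were found and tested. 8 fell and 6 rose (all tested genes: 33.9% and 34.6%), and the median log2 fold change was -0.07. Map2k4, a kinase that activates JNK, fell from 93.9 ± 2.22 to 71.8 ± 1.77 CPM (log2 fold change -0.39, SE 0.03, adjusted p = 1.17e-07). Rps6ka1, which encodes the ERK-dependent kinase RSK1, rose from 6.84 ± 0.552 to 11.7 ± 0.935 CPM (log2 fold change 0.77, SE 0.07, adjusted p = 3.69e-07). Mapk11, a p38 kinase, rose from 10.9 ± 0.630 to 14.2 ± 0.184 CPM (log2 fold change 0.38, SE 0.05, adjusted p = 1.52e-05). These are transcript levels, and kinase activity was not measured here.

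Of 13 genes that damp the pathway, phosphatases of MAP kinases and genes that act in the breakdown of its proteins, 6 fell and 3 rose, where the background over all tested genes was 33.9% and 34.6%, with a median log2 fold change of -0.04. Dusp6, the ERK phosphatase that is itself induced by ERK, fell from 329 ± 10.6 to 203 ± 16.9 CPM (log2 fold change -0.70, SE 0.05, adjusted p = 2.08e-08). Dusp10, a phosphatase of JNK and p38, fell from 25.0 ± 0.976 to 12.2 ± 0.612 CPM (log2 fold change -1.04, SE 0.05, adjusted p = 2.39e-10). Dusp16, a JNK phosphatase, rose from 47.8 ± 3.08 to 60.8 ± 3.02 CPM (log2 fold change 0.35, SE 0.05, adjusted p = 1.76e-05). Dusp8, also a phosphatase of JNK and p38, rose from 11.2 ± 1.08 to 14.2 ± 1.07 CPM (log2 fold change 0.35, SE 0.07, adjusted p = 0.000777), but was not called on the log2(TPM + 0.1) scale (0.16, adjusted p = 0.135).

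Immediate early genes outside the AP-1 family share signals with Fos and Junb. Of 26 listed genes 24 were tested, of which 15 fell, 4 rose and 5 were not called, against 33.9% of all tested genes lower, 34.6% higher and 68.5% called in either direction, with a median log2 fold change of -0.30. Egr1, a zinc finger factor induced by ERK, fell from 7.48 ± 0.811 to 3.44 ± 0.342 CPM (log2 fold change -1.12, SE 0.10, adjusted p = 1.07e-07). Ccn2, a matricellular protein also induced through YAP, fell from 22.3 ± 1.60 to 8.10 ± 0.800 CPM (log2 fold change -1.46, SE 0.07, adjusted p = 2.71e-10). Klf4, a zinc finger factor of stem cells and epithelia, rose from 10.6 ± 0.743 to 15.2 ± 1.04 CPM (log2 fold change 0.51, SE 0.07, adjusted p = 6.2e-06), and Gadd45b, a stress gene, from 2.54 ± 0.371 to 3.43 ± 0.345 CPM (log2 fold change 0.43, SE 0.12, adjusted p = 0.00535). The lists were chosen with results of these data known, and no test of a list as a whole was made.

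Known AP-1 target genes moved both ways. Of 30 listed genes 17 were tested, of which 8 fell and 7 rose (33.9% and 34.6% of all tested genes), with a median log2 fold change of -0.16. Spp1, which encodes the secreted adhesion protein osteopontin, had 9.13 ± 0.495 CPM in the parental libraries and 0.282 ± 0.0958 CPM after passaging (log2 fold change -5.01, SE 0.14, adjusted p = 6.22e-13). Hmga2, a chromatin protein of embryonic and tumor cells, fell from 208 ± 3.23 to 73.8 ± 2.87 CPM (log2 fold change -1.49, SE 0.04, adjusted p = 1.22e-13). Timp1, an inhibitor of metalloproteinases, rose from 4.74 ± 0.655 to 9.59 ± 0.612 CPM (log2 fold change 1.02, SE 0.09, adjusted p = 1.48e-07), and F3, tissue factor, which starts coagulation, from 16.7 ± 0.734 to 26.8 ± 3.07 CPM (log2 fold change 0.68, SE 0.07, adjusted p = 8.72e-07). Of the 13 targets that were not tested, the metalloproteinases Mmp3, Mmp9, Mmp10 and Mmp13 and the cytokines Il6 and Ccl2, singled out after their values were seen, had at most 4 counts in any library.

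**Figure D4:**
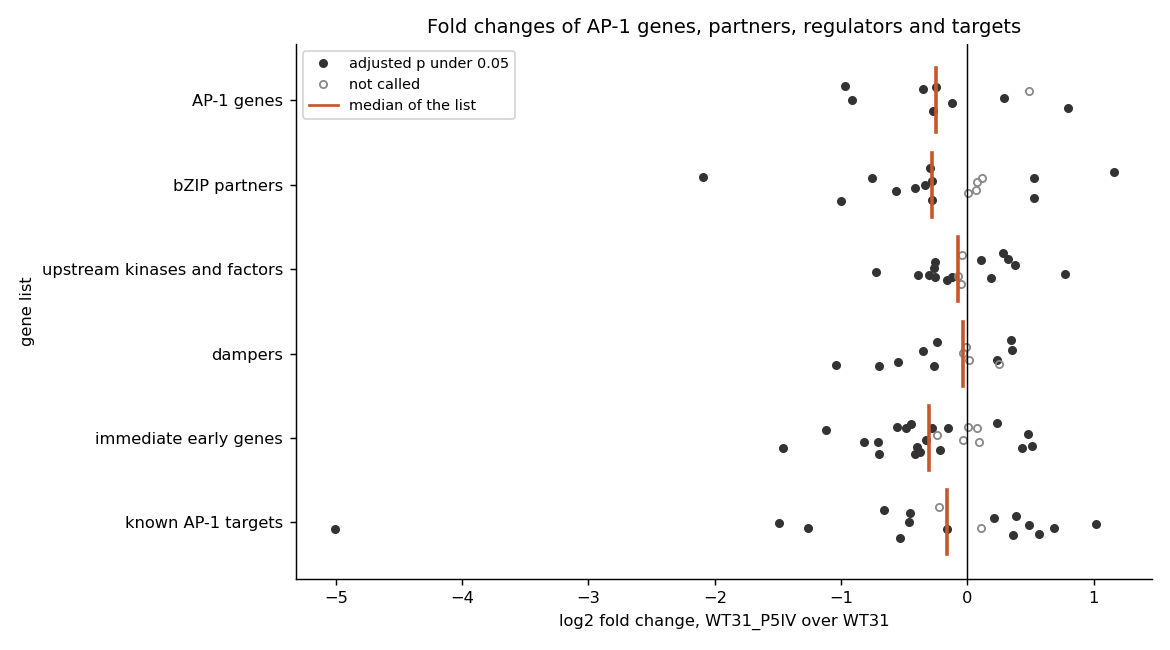
Log2 fold change of WT31_P5IV over WT31 for each tested gene of the AP-1 family and of 5 lists around it, with filled points for an adjusted p under 0.05 and a bar at the median of the list. The medians run from -0.30 for immediate early genes to -0.04 for dampers, and the point furthest to the left is Spp1 at -5.01.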

How the data were processed

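RNA-seq of WT31 and WT31_P5IV (5 libraries each) was analysed. Per the study's methods and the labels, the authors trimmed reads with Trim Galore 0.6.4 and quantified them with kallisto on GRCm38.p6, and deposited estimated counts and TPM values per gene. Neither the annotation release nor the strand setting is given in the sources used here. Symbols and positions came from GENCODE M21. Estimated counts were rounded. The quasi-likelihood test of edgeR 4.0.16 (R 4.3.3; glmQLFit, glmQLFTest, no prior count) was run after filterByExpr and TMM scaling, and p-values of the 13620 genes tested were adjusted by Benjamini-Hochberg; the study's limma voom analysis was an alternative. Called means an adjusted p under 0.05. The standard error is the log2 fold change over the root of the F statistic, and intervals are 95%. CPM are TMM-scaled. Limits of 3 counts cover counting error only. Code was tested on simulated data. Alternatives were DESeq2 1.42.0, voom in limma 3.58.1 with and without TMM, upper-quartile scaling, 2 other filters, a replicate block, a length offset, limma on log2(TPM + 0.1) and log2(TPM + 1), and leaving out libraries. Leaving out pairs of WT31 libraries was added after seeing the data.

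The AP-1 genes and the gene lists were chosen with earlier results of these data known. Named list genes are up to 2 rises and 2 falls per list, the largest by log2 fold change among called genes without overlap in CPM; 1 gene that this rule names is not reported here. Genes most like Fos and Batf3 were taken because these had the lowest and highest log2 fold change of the tested AP-1 genes on the count scale; Atf3 was lower than Fos in several alternatives. Mapk10, Mkl1 and Ier2 had no symbol match and were not used here. No 2 libraries agreed within sampling noise.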

Additional observations from a re-analysis of the deposited data

Results flagged for a closer look

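Among 66 groups of 5 values examined, for the AP-1 genes, their shares and the named genes of the lists, 1 library stood apart from its group. Map2k4 had 90.1 CPM in WT31 replicate 1 against 94.4 to 95.6 CPM in the other WT31 libraries, a gap of 0.794 of the group's range. Chance alone flags about 1 in 20 such groups. The library lay well above all WT31_P5IV libraries (69.2 to 73.9 CPM).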

How the results depend on the processing

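No fold change of a tested AP-1 gene, of a gene named from the 5 lists or of one named by likeness changed sign in any alternative, but the markers Mlana and Mitf did, and Fos, Fosl2, Atf3 and Maff were called in each. Jun was not called with upper-quartile scaling (-0.091), nor was Junb (-0.22). Junb ranged from -0.32 to -0.21 with single libraries left out, and was -0.15 without WT31 replicates 4 and 5. Jund was not called on the log2(TPM + 0.1) or log2(TPM + 1) scale (0.12 each). Batf3 was not called in DESeq2 (0.79), without a filter beyond 1 count (0.74), with a length offset (0.62), on the log2(TPM + 0.1) (0.43) and log2(TPM + 1) (0.24) scales, or without WT31 replicates 2 and 3 (0.61) or 4 and 5 (0.74), and ranged from 0.63 to 0.95 with single libraries left out. With at least 10 counts in every library, Batf3 and Fosb could not be fitted. The cause was not tested. With CPM in place of TPM, which does not account for length, the Fos genes made up 8.19% and 6.38% of the pool in WT31 and WT31_P5IV, the Jun genes 82.3% and 87.3%, and Atf3, Maff and Batf3 9.55% and 6.31%. Totals of called genes in both directions together stayed within 1.5 times the reported ones for all genes, the AP-1 genes (6 to 8) and each list, but counts by direction did not. On the log2(TPM + 0.1) scale, 2915 of all genes were called higher in WT31_P5IV against 4709 on the count scale, and the AP-1 genes called higher went from 2 to 0, upstream genes from 6 to 3 and dampers from 3 to 1. Without a filter beyond 1 count, bZIP partners called higher went from 3 to 6. The call of Tmem53 was lost in several alternatives, the replicate block among them, and those of Pwwp2b and Dusp8 on the TPM scales only. Atf3 fell more than Fos on both TPM scales, with the length offset, without WT31 replicate 5, without WT31_P5IV replicate 2 or 3, and without WT31 replicates 4 and 5. On the log2(TPM + 1) scale the changes of Maf (-0.17), Spp1 (-3.22), Creb5 (0.21), Rps6ka1 (0.49), Mapk11 (0.17), Dusp16 (0.19), Klf4 (0.34) and Gadd45b (0.27) were over 1.5 times smaller and still called.

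Deviations of same-numbered libraries of the groups had correlations from -0.10 to 0.26 over the 5 numbers, against -0.28 to 0.22 for libraries of different number. This shows no clear pairing by number, but 5 values cannot exclude one. A replicate block gave 9380 called genes against 9327, and the same 8 calls among the AP-1 genes. Low counts limit Fos, Fosb, Fosl1 and Batf3, whose libraries held at most 47, 14, 3 and 19 counts.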
